A study of Rattus norvegicus with 12 samples.

Results

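The platelet-derived growth factor (PDGF) ligands and receptors were described in rat kidneys with renal fibrosis. These are the 4 ligand genes Pdgfa, Pdgfb, Pdgfc and Pdgfd and the 2 receptor genes Pdgfra and Pdgfrb, chosen by symbol. Each had a single entry among the 22132 entries of the control and adenine table and among the 32623 entries of the sham and UUO table, and all 6 passed the filter on low values in both. RNA had been sequenced from 12 kidneys of wild-type male Sprague-Dawley rats, 8 weeks old at purchase, with 3 rats in each of 4 groups. The control group received saline and the adenine group received adenine at 220 mg/kg per day, both by gavage for 3 weeks. In the UUO group (unilateral ureteral obstruction) the left ureter was ligated, the sham group had the operation without ligation, and both were examined after 2 weeks. Values are FPKM (fragments adjusted for transcript length and for library size), so levels of different genes can be compared, and the 2 tables had been normalized separately.

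PDGF ligands are secreted dimers, and each ligand gene can be made by cells other than those that carry the receptors. Products of Pdgfa and Pdgfc act mainly through PDGFR-alpha, the product of Pdgfd acts mainly through PDGFR-beta, and the PDGF-B dimer binds both receptors. The receptors are tyrosine kinases of mesenchymal cells. In the kidney they are known from mesangial cells, pericytes and interstitial fibroblasts, where the pathway drives proliferation and matrix production.

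Pdgfb and Pdgfrb had the largest log2 fold changes of the 6 genes in both models, while Pdgfc passed the test in neither. By limma (Benjamini-Hochberg adjustment over all entries tested), 4 of the 6 genes rose in the adenine model, where 39.6% of all 15029 tested entries did. In the UUO model 5 of 6 rose, against 56.1% of 15043. A call means an adjusted p under 0.05. Only Pdgfb after adenine, and Pdgfb and Pdgfrb after UUO, were also DEGs, which also needed a log2 fold change of 2 or more in size. Upregulated DEGs made up 10.7% and 13.2% of all tested entries. Over all tested entries the median log2 fold change was 0.30 after adenine and 0.62 after UUO. A second scaling, median-of-ratios, which centres that median near 0, left 3 and 4 of the 6 genes called, against 28.7% and 27.7% of all entries.

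Umod, the uromodulin gene of the thick ascending limb and a marker of kidney tissue, was at a mean FPKM of 1439 in control and 2158 in sham kidneys, and at 143 in adenine and 105 in UUO kidneys. The 10 highest entries held 28.3% to 31.7% of summed FPKM in control, 16.5% to 18.9% in adenine, 28.1% to 31.8% in sham and 11.7% to 12.8% in UUO kidneys. How many reads lie behind a value is unknown. Control rat 2 stood apart in the podocyte markers, which summed to 31.9 FPKM against 147 and 203 in the other controls.

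**Figure D1:**
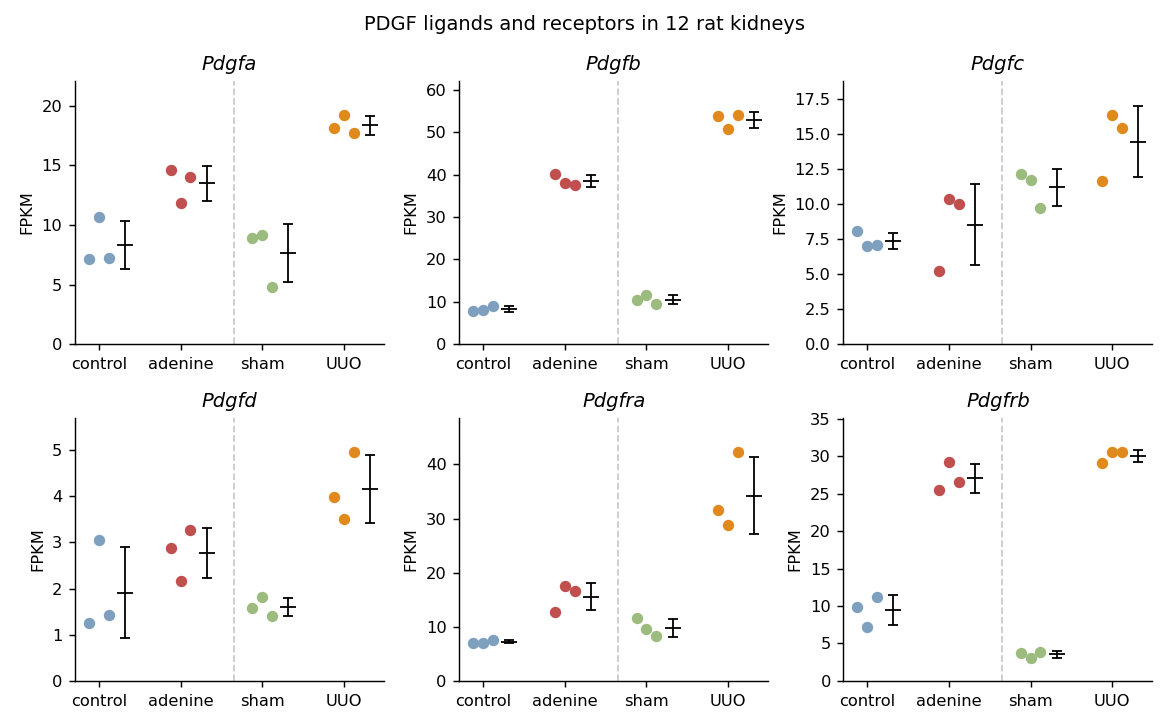
FPKM of each PDGF gene (vertical axes, one panel a gene) in the 3 kidneys of each group, with points for kidneys and bars for the mean and SD. Pdgfb and Pdgfrb of both models were separated from their undiseased groups, and Pdgfc overlapped in both models.

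Pdgfa and Pdgfb are the ligand genes that rose in both models, so the RefSeq sequence (build GRCr8) of the 250 bases before each gene start is shown. Both stretches are on the sense strand of their gene, 5′ to 3′, with a GC box in capitals. Capitals mark CCGCCC, which is GGGCGG, the core of a GC box bound by Sp1-type factors, on the other strand. Pdgfa lies at chr12:20759116-20759365, plus strand, and Pdgfb at chr7:113438344-113438593, minus strand.
Pdgfa: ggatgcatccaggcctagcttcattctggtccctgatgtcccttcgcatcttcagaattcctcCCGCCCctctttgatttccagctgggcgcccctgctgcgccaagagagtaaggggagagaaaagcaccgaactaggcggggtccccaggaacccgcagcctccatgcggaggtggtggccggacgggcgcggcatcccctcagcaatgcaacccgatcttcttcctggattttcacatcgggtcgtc
Pdgfb: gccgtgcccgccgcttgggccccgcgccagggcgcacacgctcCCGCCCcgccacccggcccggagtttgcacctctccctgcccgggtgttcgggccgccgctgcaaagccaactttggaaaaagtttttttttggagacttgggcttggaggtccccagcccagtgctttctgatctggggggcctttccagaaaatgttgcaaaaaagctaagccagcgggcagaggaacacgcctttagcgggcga
The GC content was 60.8% for Pdgfa and 63.6% for Pdgfb, against a median of 51.2% over 33469 such windows. A GGGCGG on either strand was present in 30.5% of those windows. The RefSeq windows of Pdgfc, Pdgfd and Pdgfra do not end at the annotated gene start, so they are not of the same kind as those of Pdgfa and Pdgfb. In them Pdgfd had 1 GGGCGG and Pdgfc and Pdgfra had none, and Pdgfrb was not matched. The AP-1-like letters TGANTCA, where N is any base, were present in 6.34% of windows and only in Pdgfra among the 5 matched genes. The Pdgfra match was a single stretch, TGAATCA, which fits these letters on both strands. The EGR1 letters GCGNGGGCG and the TATA letters TATAAA, present in 4.29% and 12.9% of windows, were in none of the 5. Neither the RefSeq start nor these letters show which start or factor the kidneys used.

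Pdgfb encodes the PDGF-B chain. It was at 7.89, 8.02 and 9.07 FPKM in control kidneys 1 to 3 and at 40.2, 38.1 and 37.5 in adenine kidneys 1 to 3. Sham kidneys had 10.5, 11.5 and 9.49, and UUO kidneys had 53.8, 50.8 and 54.0. Every diseased kidney was far above every undiseased kidney of its own table, and the 3 kidneys of each group lay close together. The mean went from 8.32 ± 0.646 (SD, n = 3) to 38.6 ± 1.42 in the adenine model, or 2.20 ± 0.10 as a log2 fold change with its SE (limma adjusted p = 2.63e-05). In the UUO model it went from 10.5 ± 1.01 to 52.9 ± 1.79, a log2 fold change of 2.33 ± 0.10 (limma adjusted p = 1.26e-05). Among all tested entries these log2 fold changes stood at percentiles 90.7 and 89.4. In bulk tissue, more cells of a type and more RNA per cell cannot be told apart, here and for all genes that follow.

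Pdgfa encodes the PDGF-A chain. Control kidneys had 7.18, 10.6 and 7.20 FPKM and adenine kidneys 14.6, 11.8 and 14.1. The sham values were 8.93, 9.17 and 4.84 FPKM, and the UUO values 18.1, 19.2 and 17.7. The groups did not overlap in either model, although control rat 2 came close to adenine rat 2. The log2 fold change was 0.71 ± 0.19 after adenine (limma adjusted p = 0.0158) and 1.31 ± 0.25 after UUO (limma adjusted p = 0.00286). Under median-of-ratios scaling neither passed, with 0.42 (limma adjusted p = 0.115) and 0.71 (limma adjusted p = 0.0552). In the adenine model the call was also lost without control rat 3, adenine rat 1 or adenine rat 3, with limma adjusted p of 0.0525, 0.0507 and 0.0551.

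Pdgfc encodes a ligand secreted in a latent form that needs cleavage of its CUB domain. Its values were 8.04, 7.03 and 7.03 FPKM in control and 5.20, 10.4 and 9.96 in adenine kidneys. Adenine rat 1 lay below all 3 controls and the other adenine rats above them. Sham kidneys had 12.1, 11.7 and 9.69 FPKM and UUO kidneys 11.6, 16.3 and 15.4, so that UUO rat 1 lay within the sham range. The log2 fold change of 0.14 ± 0.27 after adenine (limma adjusted p = 0.671) and of 0.36 ± 0.16 after UUO (limma adjusted p = 0.0866) did not pass, and both had the opposite sign under median-of-ratios scaling, at -0.15 and -0.24. Without adenine rat 1 the log2 fold change was 0.46 (limma adjusted p = 0.0367), and without UUO rat 1 it was 0.51 (limma adjusted p = 0.0228). Without adenine rat 2 or adenine rat 3 the adenine value was just below 0.

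Pdgfd, whose product is also latent until cleaved, was the lowest of the 6 genes in every group. Control kidneys had 1.26, 3.04 and 1.43 FPKM and adenine kidneys 2.88, 2.17 and 3.26. Control rat 2 lay inside the adenine range, and the log2 fold change of 0.60 ± 0.35 did not pass (limma adjusted p = 0.183). Without control rat 2 it was 0.98 (limma adjusted p = 0.0171). Sham kidneys had 1.58, 1.81 and 1.40 FPKM and UUO kidneys 3.98, 3.52 and 4.96, with no overlap. In the UUO model the log2 fold change was 1.32 ± 0.20 (limma adjusted p = 0.00102), and it remained called under median-of-ratios scaling at 0.74 (limma adjusted p = 0.0149).

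Pdgfrb encodes PDGFR-beta, the receptor of pericytes and mesangial cells. Control kidneys had 9.89, 7.22 and 11.2 FPKM, and adenine kidneys had 25.4, 29.2 and 26.5. Sham kidneys had 3.71, 3.04 and 3.92 FPKM and UUO kidneys had 29.1, 30.6 and 30.5. The diseased groups were far above their own undiseased groups with no overlap. The mean rose from 9.44 ± 2.03 to 27.1 ± 1.94 FPKM in the adenine model, a log2 fold change of 1.53 ± 0.18 (limma adjusted p = 0.000480). In the UUO model it rose from 3.56 ± 0.460 to 30.1 ± 0.815 FPKM, a log2 fold change of 3.05 ± 0.12 (limma adjusted p = 1.16e-05). That log2 fold change stood at percentile 94.9 of all tested entries, and the adenine one at percentile 84.1.

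Pdgfra encodes PDGFR-alpha, a receptor of interstitial fibroblasts. Control kidneys had 7.02, 7.08 and 7.55 FPKM and adenine kidneys 12.7, 17.5 and 16.5. The sham kidneys held 11.6, 9.62 and 8.27 FPKM and the UUO kidneys 31.6, 28.8 and 42.3. No diseased kidney overlapped its undiseased group, and UUO rat 3 had the highest value of its table. Pdgfra rose with a log2 fold change of 1.09 ± 0.15 after adenine (limma adjusted p = 0.000992) and 1.78 ± 0.18 after UUO (limma adjusted p = 0.000198). Both receptors remained called under median-of-ratios scaling, where the log2 fold change of Pdgfra was 0.79 and 1.19 and that of Pdgfrb 1.24 and 2.46. In all, groups did not overlap for 4 of 6 genes after adenine and 5 of 6 after UUO, where 45.0% and 60.0% of all tested entries lay wholly above their undiseased group.

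**Figure D2:**
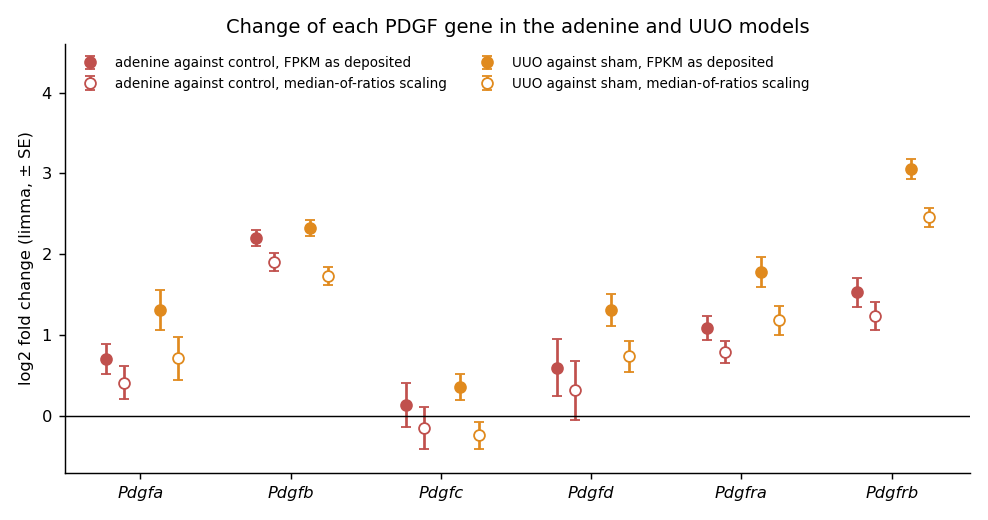
Log2 fold change of each PDGF gene (vertical axis, with limma SE) in the adenine and UUO models, as deposited and after median-of-ratios scaling. Pdgfrb reached 3.05 in the UUO model, and Pdgfc lay on both sides of 0 depending on the scaling.

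The size of the change was compared between the models for each gene. The log2 fold change of Pdgfrb was larger in the UUO model by 1.52 ± 0.21 (SE, limma estimates, adjusted p = 0.000540), and that of Pdgfra by 0.70 ± 0.24 (limma estimates, adjusted p = 0.0436). A larger change in the UUO model was called for 21.7% of 13486 genes. Under median-of-ratios scaling the difference for Pdgfrb was 1.22 (limma estimates, adjusted p = 0.00187) and that for Pdgfra was 0.39 (limma estimates, adjusted p = 0.247), with 8.05% of genes called. Pdgfra also lost its call in 9 of 12 fits made with a kidney left out, with adjusted p of 0.0540 to 0.0995, while Pdgfrb kept its call in all 12. The differences for Pdgfa (0.60 ± 0.31), Pdgfd (0.71 ± 0.41), Pdgfc (0.22 ± 0.32) and Pdgfb (0.13 ± 0.14) did not pass, and those of Pdgfb and Pdgfc turned to -0.18 and -0.09 under median-of-ratios scaling. Diseased Pdgfrb levels were 25.4 to 29.2 FPKM in adenine and 29.1 to 30.6 FPKM in UUO kidneys, whereas undiseased levels were 7.22 to 11.2 in control and 3.04 to 3.92 in sham kidneys. These levels come from separately normalized tables and were set side by side without a test.

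The order of the 6 genes by mean FPKM differed between the groups. In control kidneys Pdgfrb, Pdgfa, Pdgfb, Pdgfc and Pdgfra followed each other with overlapping neighbours, and Pdgfd lay clearly below. Sham kidneys had Pdgfc, Pdgfb, Pdgfra and Pdgfa in that order with overlapping neighbours, then Pdgfrb and then Pdgfd without overlap. Pdgfb was highest in both diseased groups, without overlap with the next gene. It was followed by Pdgfrb in adenine kidneys and by Pdgfra and Pdgfrb, which overlapped, in UUO kidneys. Within each diseased group Pdgfc lay below Pdgfa and above Pdgfd, without overlap.

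Ratios between 2 members within a kidney do not depend on how a kidney's values were scaled to a total. Pdgfb made up 32.3% ± 4.38 of the summed ligand FPKM in control and 60.9% ± 3.03 in adenine kidneys (SD, n = 3). Its share was 34.2% ± 2.91 in sham and 58.9% ± 2.48 in UUO kidneys. The mean log2 ratio of Pdgfa to Pdgfb went from -0.02 to -1.52 after adenine and from -0.51 to -1.53 after UUO, with every diseased kidney below every undiseased one. Each difference had p = 0.1 by a two-sided exact permutation test over 20 assignments, the smallest p that 3 against 3 can give, and 0.12 after adjustment over the 6 ratio tests.

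Between the receptors, the ratio of Pdgfra to Pdgfrb was 0.709, 0.980 and 0.674 in control kidneys and 0.499, 0.599 and 0.623 in adenine kidneys. In sham kidneys it was 3.12, 3.16 and 2.11, and in UUO kidneys 1.08, 0.943 and 1.38. Diseased kidneys had the lower ratio in both models without overlap. On the log2 scale the difference was -0.44 after adenine and -1.29 after UUO, each with p = 0.1 (exact permutation, adjusted p = 0.12). Control rat 2 had the highest ratio of the control kidneys, and without it the adenine difference was -0.28, still without overlap. Pdgfrb held 56.2% ± 5.02 of receptor FPKM in control, 63.6% ± 2.72 in adenine, 26.8% ± 4.64 in sham and 47.1% ± 4.82 in UUO kidneys. The log2 ratio of Pdgfc to Pdgfd was lower by 0.49 in adenine than in control kidneys, with overlap (exact permutation p = 0.4). That difference was -0.13 without adenine rat 1 and -0.92 without control rat 2, where the groups no longer overlapped. In UUO kidneys this log2 ratio was 1.01 below that of sham kidneys, without overlap (exact permutation p = 0.1, adjusted p = 0.12).

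**Figure D3:**
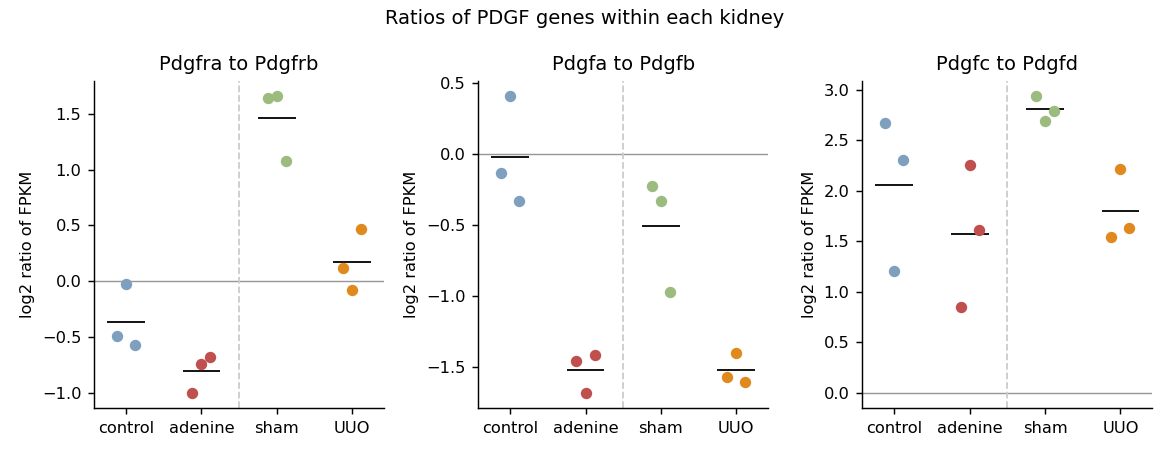
Log2 ratio of FPKM (vertical axes) for 3 pairs of PDGF genes, each point a kidney, by group. The Pdgfa to Pdgfb ratio of diseased kidneys lay below that of undiseased kidneys in both tables, and the Pdgfra to Pdgfrb ratio of sham kidneys was the highest of the 4 groups.

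Markers of cells that can carry the receptors were measured in the same kidneys. Of all tested entries 39.6% rose after adenine and 56.1% after UUO. Of 8 mural markers, the genes of pericytes and vascular muscle such as Rgs5 and Des, 6 rose and none fell after adenine and 8 rose after UUO. Their summed level went from 35.7-45.2 FPKM in control to 102-113 in adenine kidneys, and from 42.2-54.9 in sham to 161-235 in UUO kidneys. Fibroblast markers, such as Col1a1 and Dcn, rose for 7 of 8 tested genes after adenine, with Dpt falling by 0.87 on the log2 scale, and for 9 of 9 after UUO. Their summed level was 87.6-139.9 FPKM in control, 546-793 in adenine, 96.0-115 in sham and 1233-2769 in UUO kidneys. The part of these cells in the receptor changes was not tested.

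The levels of the members were also set against the median of each marker list within a kidney, on the log2 scale. Pdgfrb lay 1.63 ± 0.37 (SD, n = 3) above the mural median in control, 2.11 ± 0.09 above it in adenine, 0.36 ± 0.13 in sham and 0.83 ± 0.28 in UUO kidneys. The control values were 1.73, 1.22 and 1.93, the lowest in control rat 2, and all lay below the adenine minimum of 2.02. Pdgfra stood 1.27 ± 0.09 above the mural median in control and 1.31 ± 0.14 in adenine kidneys, and 1.80 ± 0.20 in sham and 1.00 ± 0.41 in UUO kidneys. Relative to the fibroblast median, Pdgfrb went from -0.17 to -0.22 after adenine and from -1.06 to -2.06 after UUO. Its diseased and undiseased kidneys overlapped in both models. Pdgfra went from -0.53 ± 0.40 in control to -1.03 ± 0.14 in adenine kidneys, with control rat 2 alone in the adenine range, and from 0.37 ± 0.88 in sham to -1.89 ± 1.01 in UUO kidneys, without overlap. Pdgfrb thus stood further above the mural markers in the diseased kidneys of both models, without overlap. In the UUO model these Pdgfrb groups all but met, with sham rat 3 at 0.5115 and UUO rat 1 at 0.5126. Pdgfra stood less far above the mural markers in UUO than in sham kidneys, also without overlap. The fibroblast differences of Pdgfrb had SDs between kidneys of 0.29 to 0.86.

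For the ligands, endothelial cells, macrophages and platelets are known sources of PDGF-B. Among all tested entries 39.6% rose and 19.9% fell after adenine, and 56.1% rose and 14.4% fell after UUO. Of 7 tested endothelial markers, 2 rose and 4 fell after adenine, and 5 rose and 1 fell after UUO. Under median-of-ratios scaling 1 rose and 4 fell after adenine, and 4 rose and 2 fell after UUO. Their summed level was 93.4-115 FPKM in control, 54.8-75.4 in adenine, 93.6-116 in sham and 166-209 in UUO kidneys. Pdgfb lay -0.21 ± 0.22 from the endothelial median on the log2 scale in control and 2.13 ± 0.35 above it in adenine kidneys, and -0.09 ± 0.31 from it in sham and 1.09 ± 0.19 above it in UUO kidneys. Pdgfb thus stood further above the endothelial markers in the diseased kidneys of both models. The same held for smooth muscle markers, but not for the mural and fibroblast lists. Relative to the fibroblast median, Pdgfb went from -0.33 to 0.29 after adenine and from 0.47 to -1.25 after UUO, both without overlap. The groups of the adenine model all but met, with control rat 1 at -0.0794 and adenine rat 2 at -0.0615. SDs between kidneys were 0.42 in control and adenine, 0.73 in sham and 0.82 in UUO kidneys. Relative to the mural median, Pdgfb was higher in adenine than in control kidneys, without overlap. In UUO kidneys its mean above the mural median was lower than in sham kidneys, with overlap.

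All 7 macrophage markers rose in both models, and their summed level went from 154-221 to 6299-12912 FPKM after adenine and from 179-301 to 1327-2000 FPKM after UUO. Of 3 tested platelet markers, Pf4 rose and Itga2b fell in both models. The summed platelet level was 7.51-11.6 FPKM in control, 52.1-54.4 in adenine, 7.68-10.9 in sham and 12.9-22.8 in UUO kidneys, most of it Pf4 in the diseased kidneys. Tubb1 was at the lowest listed value in all control and sham kidneys, as was Ppbp in all sham kidneys. The part of these cells in the Pdgfb change was not tested.

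**Figure D4:**
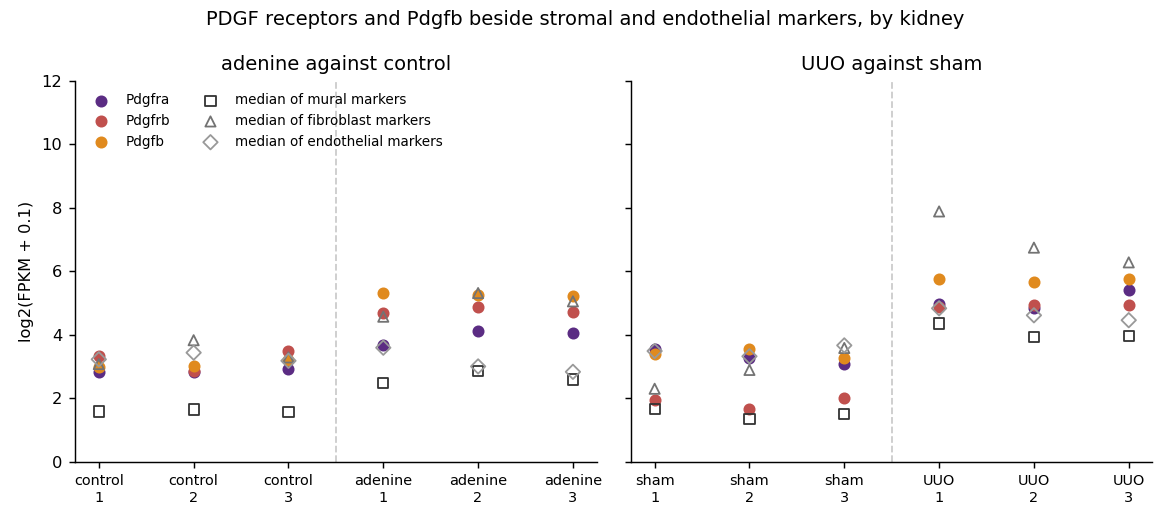
Level on the log2(FPKM + 0.1) scale (vertical axis) of Pdgfrb, Pdgfra and Pdgfb beside the medians of the mural, fibroblast and endothelial marker lists, by kidney. Pdgfb lay 2.13 above the endothelial median in adenine kidneys and 1.09 above it in UUO kidneys, against -0.21 and -0.09 in their undiseased groups. Relative to the fibroblast median, Pdgfb went from -0.33 to 0.29 after adenine, where the groups all but met, and from 0.47 to -1.25 after UUO.

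The wider pathway was described with 7 lists. Over all lists, 64 of 87 tested genes (73.6%) rose and 5 fell in the adenine model, against 39.6% and 19.9% of all tested entries. In the UUO model 68 of 85 (80.0%) rose and 4 fell, against 56.1% and 14.4%. Under median-of-ratios scaling 49 rose and 6 fell after adenine, where 28.7% of all entries rose and 28.6% fell. With that scaling 47 rose and 8 fell after UUO, where 27.7% of all entries rose and 28.3% fell.

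Other class III receptor tyrosine kinases, the family of the PDGF receptors, were described with their ligands. Csf1r, the receptor of macrophage colony-stimulating factor, rose from a mean FPKM of 6.55 to 108 after adenine (log2 fold change 4.04 ± 0.17, limma adjusted p = 2.61e-05) and from 9.45 to 74.3 after UUO (2.98 ± 0.17, limma adjusted p = 2.62e-05). In this list 5 genes rose, 1 fell and 1 was not called after adenine, and 6 rose and 1 was not called after UUO. Under median-of-ratios scaling 4 of these genes rose and 1 fell after adenine, and 6 rose and 1 fell after UUO. Kitlg, the ligand of Kit, fell by 1.25 on the log2 scale in the adenine model, and Kit itself had the lowest called value of the UUO model, 1.12. Kitlg was also called lower in UUO kidneys under median-of-ratios scaling, at -0.76 (limma adjusted p = 0.0429). Among VEGF relatives and the receptor-like gene Pdgfrl, 4 of 9 rose and 1 fell after adenine, and 5 rose and 2 fell after UUO. The shares that rose were near those of all tested entries, 39.6% and 56.1%. Vegfa, the main angiogenic ligand, fell by 1.25 on the log2 scale after adenine and by 0.63 after UUO, while Pgf, a ligand of Flt1, rose with 1.37 and 2.72. Flt4, the receptor of Vegfc and Vegfd, had the highest called log2 fold change of that list in the adenine model, 1.60.

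Of the 8 genes that process or activate latent ligands, 4 rose and 4 were not called after adenine, and 5 rose, 1 fell and 2 were not called after UUO, where 39.6% and 56.1% of all tested entries rose. Under median-of-ratios scaling 3 rose after adenine, and 2 rose and 2 fell after UUO. Plat, the tissue plasminogen activator that cleaves the PDGF-C dimer, rose with log2 fold changes of 1.22 and 1.76. Plau, the urokinase that cleaves the PDGF-D dimer, had 260 FPKM in control and 282 in adenine kidneys, and 505 in sham and 457 in UUO kidneys, and was not called in either model, but was called lower in UUO kidneys under median-of-ratios scaling, at -0.74 (limma adjusted p = 0.0196). Furin, a convertase that cuts PDGF precursors, was also not called in either model. Of the other convertases, Pcsk7 had the lowest called value in the adenine model, 0.31, a call lost under median-of-ratios scaling, and Pcsk6 fell by 1.87 on the log2 scale in the UUO model.

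Genes for proteins that bind PDGF or its receptors rose for 5 of 6 after adenine and 6 of 6 after UUO, or 5 and 4 under median-of-ratios scaling. Among all tested entries 39.6% and 56.1% rose, or 28.7% and 27.7% under that scaling. A2m, a circulating protease inhibitor that binds PDGF, was near 0 FPKM in undiseased kidneys and at means of 36.5 in adenine and 7.25 in UUO kidneys, so that its log2 fold changes of 8.32 and 6.11 depend on the pseudocount. Nrp1, a co-receptor, had the lowest called values, 1.37 and 0.86, the second not called under median-of-ratios scaling. Sparc, a matrix protein that binds PDGF-B, rose from 185 to 527 FPKM after adenine, with a log2 fold change of 1.52, and by 2.70 on that scale after UUO. Lrp1, a co-receptor of PDGFR-beta, rose with 2.70 and 2.84. Cspg4, the NG2 proteoglycan of pericytes and also one of the mural markers, was at 1.49 and 1.58 FPKM in control and adenine kidneys, not called, and rose by 1.19 on the log2 scale in the UUO model, a call lost under median-of-ratios scaling.

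The genes that relay the receptor signal rose for 24 of 31 after adenine, where 2 fell, and for 26 of 30 after UUO, where 1 fell. Their median log2 fold change was 0.84 and 0.87, against 0.30 and 0.62 for all entries. Under median-of-ratios scaling 16 relay genes rose and 3 fell after adenine, and 14 rose and 3 fell after UUO. The shares of all entries that rose were 39.6% and 56.1%, or 28.7% and 27.7% under that scaling. Crkl was not analysed here. Shc1, an adaptor of activated receptors, rose with log2 fold changes of 1.82 and 1.91. Map2k2, the MEK2 gene, fell in both models, by 1.11 and 0.43 on the log2 scale, and Hras fell by 0.64 in the adenine model. Hras was also called lower in UUO kidneys under median-of-ratios scaling, at -0.69 (limma adjusted p = 0.00308).

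Genes that restrain the signal rose for 7 of 10 after adenine, where 1 fell, and for 9 of 10 after UUO. Under median-of-ratios scaling 6 rose in each model. Of all tested entries 39.6% and 56.1% rose, or 28.7% and 27.7% under that scaling. Cbl, a ubiquitin ligase of activated receptors, rose with a log2 fold change of 2.94 after adenine and 1.24 after UUO. Its control kidneys had 0.145 to 0.399 FPKM, all below the filter value of 0.5. Cbl was thus tested in the adenine model only through its adenine values, and the size of 2.94 depends on the pseudocount. Ptpn1, the phosphatase PTP1B, rose with 2.42 and 1.48, the latter the highest of the list after UUO. Acp1, a low-molecular-weight tyrosine phosphatase, fell by 1.02 on the log2 scale in the adenine model. Early target genes, which growth factors of many kinds induce, rose for 15 of 16 after adenine and 11 of 15 after UUO. Their medians were 2.38 and 1.69. Under median-of-ratios scaling 11 early target genes rose in each model. The shares of all entries are those given for the genes that restrain the signal. Egr2 rose from 0.195 to 25.6 FPKM in the adenine model and Atf3 from 1.73 to 44.3 FPKM. Cxcl1, a chemokine, had the highest log2 fold change of the list after UUO, 4.24 ± 0.68. It was at 0.0001 to 0.656 FPKM in sham kidneys, so the size of this change and its rank depend on the pseudocount. Srf had the lowest called values, 0.42 after adenine, a call lost under median-of-ratios scaling, and 1.27 after UUO. Myc rose by 2.86 and 3.01 on the log2 scale and Ccl2 by 3.19 and 3.65. Fos, Egr1, Fosb and Nr4a1 were not called in the UUO model, and Nr4a1 was not called in the adenine model. Egr3 was listed at 0 in all 3 control kidneys. Fosl1 and Egr2 were below 0.5 FPKM in every control kidney. Fosl1, Egr2 and Egr3 were thus tested in the adenine model only through their adenine values. Fosl1 and Egr2 were also below 0.5 FPKM in every sham kidney.

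**Figure D5:**
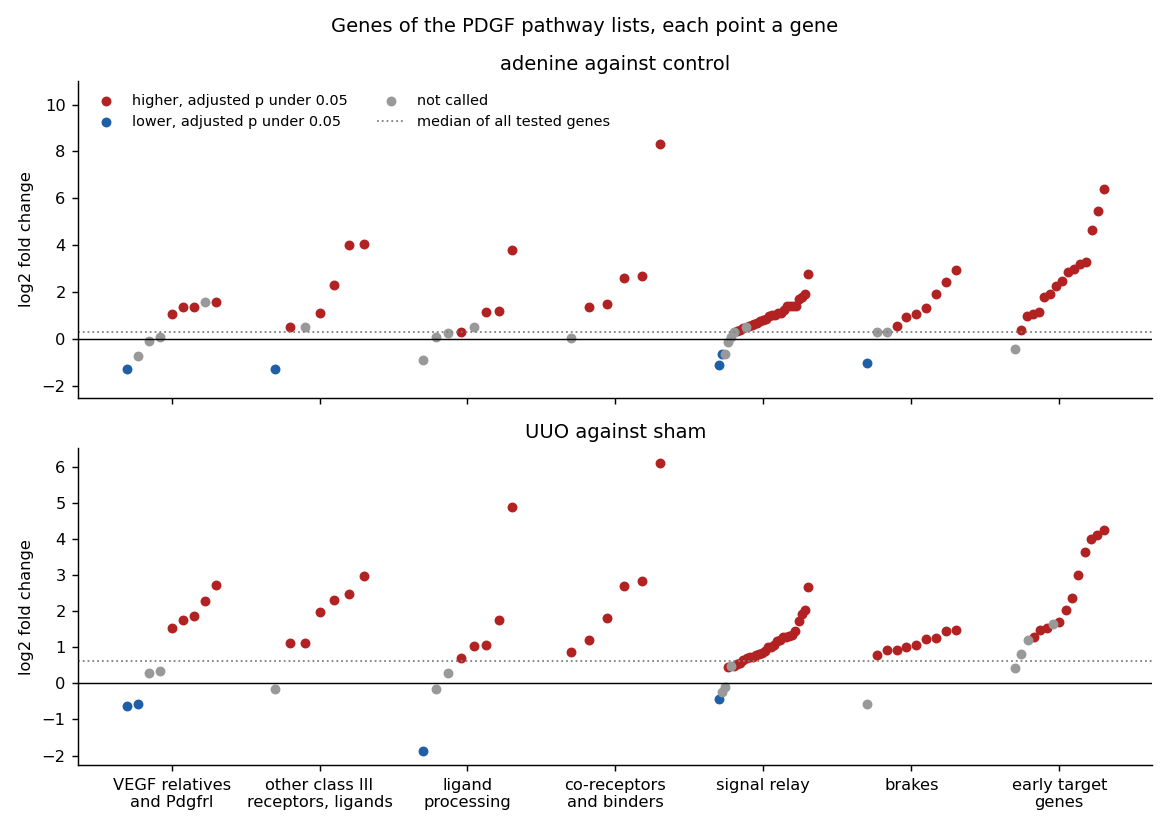
Log2 fold change (vertical axes) of each tested gene of the 7 PDGF pathway lists in the adenine and UUO models, with the median of all tested entries (0.30 and 0.62) as a dotted line. The median of each list lies above the dotted line in both models, although some points lie below it. The highest point in both models is A2m, which was near 0 FPKM in the undiseased kidneys.

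The 3 genes whose pattern was most like each member were found by Pearson's r over the 12 kidneys, after centring each table, among 13485 other genes. The kidneys of a group share their disease state, so r is a description of that difference and carries no p. For Pdgfb they were Clip2, Relb and Colgalt1 (r = 0.998 each), and for Pdgfrb Pkd1, Prrc2a and Ptpn23 (r = 0.996, 0.993 and 0.993). For Pdgfra they were Bicc1, Wdr48 and Eif2ak3 (r = 0.994, 0.991 and 0.991), for Pdgfa Tpd52l1, Ube2e1 and Tpst1 (r = 0.977, 0.976 and 0.972), for Pdgfd Nfat5, Naca and AABR07012054 (r = 0.967, 0.965 and 0.960) and for Pdgfc AABR07002247, Col11a1 and Wdr35 (r = 0.901, 0.892 and 0.873). Between members, Pdgfra and Pdgfrb had r = 0.964, Pdgfb had r = 0.950 with Pdgfra and 0.946 with Pdgfrb, and Pdgfc had the lowest r with the others, 0.331 to 0.574.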

How the data were processed

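RNA was sequenced from 12 rat kidneys in 4 groups of 3, grouped by their labels. The authors deposited FPKM values per gene in 2 tables, one for control and adenine and one for sham and UUO. The submitters' processing notes name cutadapt 1.9, HISAT2 2.0.4, StringTie 1.3.4d, edgeR and DESeq2. The genome build and annotation are not given in the sources used here. The authors used DESeq2, which needs counts, so limma 3.58.1 in R 4.3.3 (eBayes with a trend) was used here on log2(FPKM + 0.1), keeping entries that reached an FPKM of 0.5 in 3 or more of the 6 samples. Fold changes on that scale are understated for low genes. Entries below 0.5 in all undiseased kidneys could still pass the filter through their diseased kidneys alone. Each table was fitted alone. The change in the UUO model minus that in the adenine model was divided by its combined SE, referred to a t distribution with the degrees of freedom of both fits, and adjusted over genes listed once and tested in both tables. Within-kidney ratios were tested by exact permutation in Python 3.11.15 (numpy 2.4.6, pandas 2.3.3, scipy 1.17.1). Scripts were tested on simulated data.

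Read numbers are unknown: too few low genes shared a ratio between samples (0.59% to 1.94%) to give relative depth. Precision rests on the spread between 3 rats. Rats in different groups are different animals. The members and gene lists, and the rule for naming genes (all members, any list gene but at least those with the highest and lowest called change in each list and model, and the 3 genes most like each member), were chosen with earlier results of these data known. Some genes that this rule names are not reported here. Alternatives were other pseudocounts, filters, scalings, a fit without trend, a replicate block and leaving out each kidney.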

Additional observations from a re-analysis of the deposited data

Results flagged for a closer look

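The change of 2 members differed between the models by a test of the difference itself, which is why they are listed here. The log2 fold change of Pdgfrb was 1.52 larger in the UUO model (3.05) than in the adenine model (1.53), and it differed in all 12 fits that left out a kidney, at 1.39 to 1.70. The log2 fold change of Pdgfra was 0.70 larger in the UUO model (1.78) than in the adenine model (1.09), and this call was lost in 9 of those 12 fits and under median-of-ratios scaling (0.39). No other member differed between the models at an adjusted p under 0.05. Groups of 3 were not tested for outlying kidneys.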

How the results depend on the processing

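The number of members that were DEGs fell from 1 to 0 in the adenine model under median-of-ratios scaling, where Pdgfb had a log2 fold change of 1.91 by limma and 3 members were called, and from 2 to 1 in the UUO model under median-of-ratios scaling and 1 under quantile normalization. The number of pathway genes that fell in the UUO model (4) was 1 without a filter, 8 with median-of-ratios scaling, 7 with quantile normalization and 1 after rescaling to the same sum. The members whose change differed between models (2) were 1 without a filter, with median-of-ratios scaling, with quantile normalization, after rescaling to the same sum and with eBayes without trend, and 1 to 2 when each kidney was left out. The log2 ratio of Pdgfc to Pdgfd in the UUO model, -1.01, was -0.65 with a pseudocount of 1 and -0.69 with quantile normalization. The causes were not tested.

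The sign reversed for Pdgfc in the adenine model (median-of-ratios -0.15, quantile -0.18, leaving out a kidney -0.031 to 0.46, with -0.0014 without adenine rat 3) and in UUO kidneys (median-of-ratios -0.24, quantile -0.19). Between models it reversed for Pdgfb (median-of-ratios -0.18, quantile -0.13) and Pdgfc (median-of-ratios -0.090, quantile -0.0054, leaving out a kidney -0.10 to 0.39, the former without adenine rat 1). None of the values below 0 was called, and the 0.46 without adenine rat 1 was (limma adjusted p = 0.0367). Pdgfa in the adenine model also lost its call under quantile normalization (limma adjusted p = 0.0833), as did Pdgfd in the UUO model (limma adjusted p = 0.0766), and Pdgfc in the UUO model was called after rescaling to the same sum (limma adjusted p = 0.0166).

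With each kidney left out, 3 to 5 members were called in the adenine model and 5 to 6 in the UUO model. Rats that share a replicate number are different animals, and same-numbered kidneys did not deviate together in the adenine model (r = -0.12 to -0.05), with r = 0.05 to 0.11 in the UUO model, where every kidney correlated best with its own number. With that number as a block, 4 and 5 members were called as before, and 1 member differed between models instead of 2.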

Other observations

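Other cell type lists were measured in the same kidneys. Of all tested entries 39.6% rose and 19.9% fell after adenine, and 56.1% rose and 14.4% fell after UUO. Under median-of-ratios scaling these shares were 28.7% and 28.6% after adenine, and 27.7% and 28.3% after UUO. Some counts below lie near these shares, such as 2 of 5 smooth muscle markers after adenine and 3 of 5 proliferation markers after UUO. Of the 5 podocyte markers 1 fell after adenine, and 1 rose and 1 fell after UUO. Proximal tubule markers fell for 4 of 6 in both models, from 1428-2012 to 147-403 FPKM after adenine and from 1889-2107 to 272-494 FPKM after UUO. Of 4 thick limb and distal tubule markers 2 fell after adenine and 4 after UUO, and of 5 collecting duct markers 3 and 5 fell. Smooth muscle markers rose for 2 of 5 and fell for 1 after adenine, and rose for 5 of 6 after UUO. Lymphocyte markers rose for 2 of 3 and 3 of 3 tested genes, and proliferation markers rose for 4 of 5 and 3 of 5. Under median-of-ratios scaling proliferation markers rose for 3 of 5 after adenine and 1 of 5 after UUO, smooth muscle markers for 1 of 5 and 4 of 6, and 3 of 5 podocyte markers fell and none rose after UUO. Proximal tubule markers then fell for 5 of 6 after UUO and collecting duct markers for 4 of 5 after adenine. Pdgfrl, a receptor-like gene, was at 10.7 FPKM in adenine rat 1 against 1.26 and 1.84 in the other adenine rats.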
